A study of Mus musculus with 4 samples.

Results

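Gene expression in the pontine nucleus of mice on postnatal day 5 was set against that on postnatal day 1, as the log2 signal on the array that carries the P5 label (the P5-labelled array) minus the log2 signal on the P1 array. The comparison took every gene that the platform's table names with a single symbol, and where a gene had several probe sets, the one with the largest average over these 2 arrays stood for it. Of 19938 such genes, the 10597 that reached 8.42 on the log2 scale on at least 1 of the 2 arrays are described here. That level is the median of all probe sets with 1 symbol over both arrays. Each array held total RNA from 1 pool of dissected tissue of ICR mice kept on a light and dark cycle, from 16 mice at P1 and 13 mice at P5. The labels name neither a mutation nor a treatment. The series holds 2 further arrays, from 27 mice at embryonic day 17.5 (E17.5) and 12 mice at postnatal day 14 (P14). They do not enter the comparison and are used below as a check and for levels given beside it. With 1 array per age, no test could be run and no spread between pools is known. Differences are given on the log2 scale, on which 1 stands for 2-fold, and the number of arrays limits their precision.

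The pontine nucleus lies in the ventral pons and carries messages of the cerebral cortex on to the cerebellum. Its neurons are glutamatergic, arise in the rhombic lip, migrate to the pons before birth and send mossy fibres to cerebellar granule cells. In the first weeks after birth such neurons stop extending axons, mature their synapses and channels, and become enwrapped by oligodendrocytes, the glia that make myelin.

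The arrays did not stand in the order of their ages. Over the 10597 genes, Pearson's r across genes, which are not replicates, was 0.969 between E17.5 and P1, 0.798 between P1 and the P5-labelled array, and 0.965 between P1 and the P14-labelled array. The labels are kept as deposited, so each direction below belongs to the P5-labelled array and may not belong to that age. The 7 markers of pontine neurons all reached 8.42 on both arrays, from 9.38 to 13.4 at P1 and from 9.68 to 12.9 on the P5-labelled array. Among them were Barhl1, a homeobox factor of rhombic lip neurons (11.79 and 10.83), and Slc17a6, the vesicular glutamate transporter VGLUT2 (11.17 and 11.57). None of the 4 markers of choroid plexus and ependyma reached 8.42 on either array. The 4 named oligodendrocyte markers had a median of 7.77 at P1 and 12.91 on the P5-labelled array, and the 5 astrocyte markers 10.37 and 12.09. In whole tissue, fewer cells of a type and less RNA per cell cannot be told apart.

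On the P5-labelled array, 977 genes were at least 2-fold higher than at P1, which is 9.22% of the genes, and 420 were at least 2-fold lower, which is 3.96%. Together these 1397 genes make up 13.2%, and 9200 genes lay within 2-fold. The imbalance grew with size, though many of the largest positive differences started from a P1 value under 8.42. At 4-fold there were 222 genes on the higher side and 52 on the lower, at 8-fold 55 and 7, and at 16-fold 13 and 1. The median difference over all genes was 0.07. Just outside the threshold, 197 genes had a difference of 0.9 up to 1 and 123 one of −1 to −0.9. Just inside it, 148 lay between 1 and 1.1 and 96 between −1.1 and −1. Among 629 genes with several probe sets, those of 1 gene scattered with a standard deviation of 0.18, which holds probe noise and not the difference between pools. In 399 of the higher genes and 138 of the lower ones the smaller value lay under 8.42. The size of such a difference is inexact, and levels are given for these genes, without a fold. Counts and medians of lists cover the members that passed the filter, some of them through 1 array alone. The shares of all genes, 9.22% higher and 3.96% lower, are the reference for every such count.

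**Figure D1:**
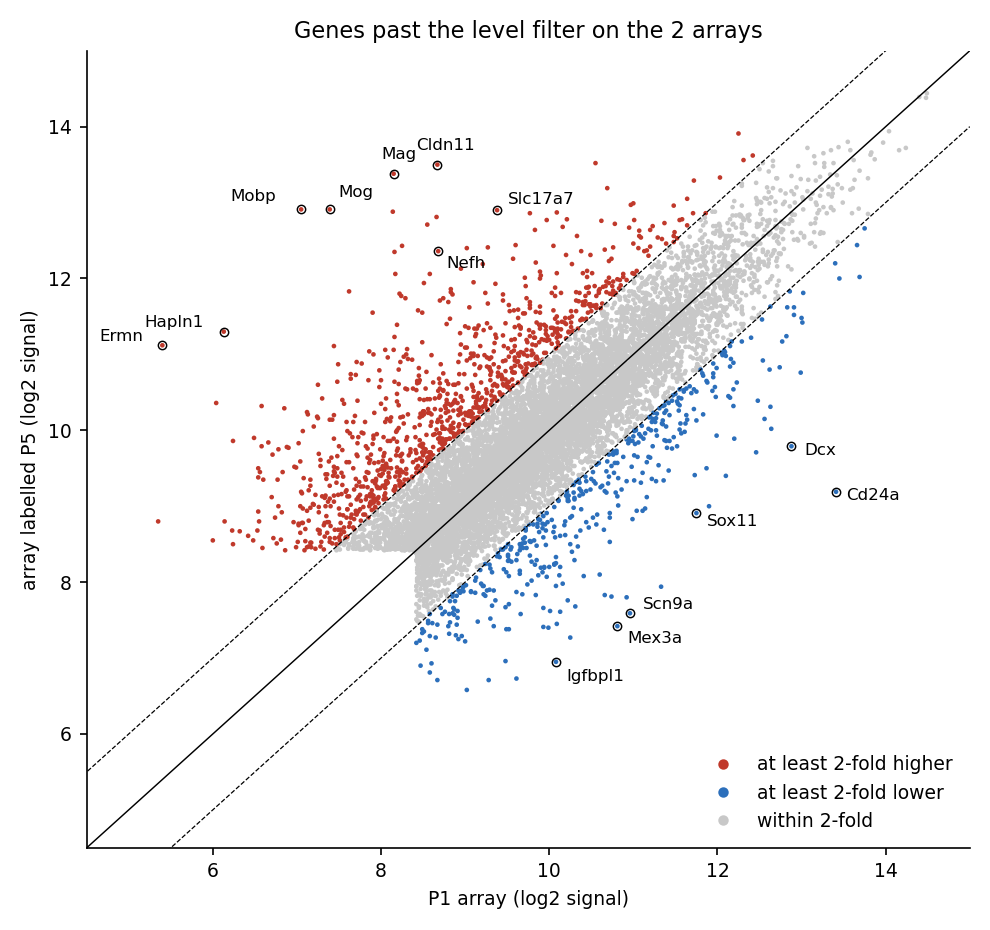
Log2 signal of each of 10597 genes on the P5-labelled array (vertical axis) against the P1 array (horizontal axis), 1 point per gene. The solid line marks equal values and the dashed lines 2-fold. The 977 red points above the upper dashed line include Mobp, Mog, Mag and Cldn11 near the top left, and the 420 blue points include Cd24a and Dcx at the lower right. Points are absent at the lower left because of the level filter at 8.42.

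The 20 genes with the largest positive differences belonged mostly to myelin. Mobp, a structural protein of the compact sheath, stood at 7.05 on the E17.5 array, 7.05 at P1, 12.91 on the P5-labelled array and 8.50 on the P14-labelled array. Mag, an adhesion protein of the inner sheath, stood at 7.35, 8.15, 13.38 and 9.63 in the same order, and Cldn11, the tight junction protein of myelin, at 8.30, 8.67, 13.50 and 10.18. For these 3 genes the P5-labelled array was far above the other 3. Cldn11 was 28.4-fold higher than at P1, Trf, the iron carrier transferrin, 17.9-fold and Ugt8a, which makes galactocerebroside, 17.8-fold. Ermn, a cytoskeletal protein of oligodendrocytes, stood at 5.40 at P1 and 11.12 on the P5-labelled array, and Opalin, a membrane protein of the same cells, at 6.04 and 10.36. Tspan2 (8.25 and 12.43), Mal (7.62 and 11.83), Fa2h (8.16 and 12.35), Elovl7 (7.90 and 11.55), Gsn (8.22 and 11.80) and Adamts4 (8.17 and 12.06) were among the same 20. So were genes that are not on the myelin lists. Hapln1, a link protein of the matrix around neurons, stood at 6.13 and 11.30, Nefh, the heavy neurofilament, at 8.68 and 12.36, Lgi3 at 8.14 and 12.88, Fam163a at 6.58 and 10.32, Medag at 6.24 and 9.86, and Nipal4 at 7.44 and 11.11.

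Of the 30 myelin sheath proteins named on the array, all passed the filter and 28 were at least 2-fold higher, against 9.22% of all genes. Their median difference was 2.90, against 0.07 for all genes. In 18 of the 28 the P1 value lay under 8.42. The 2 within 2-fold were Cd9, a tetraspanin (0.96), and Cntn2, an axonal contactin (−0.97). Mbp, myelin basic protein, stood at 10.05 and 12.43, a difference of 2.38, and Car2, a carbonic anhydrase, differed by 1.5. Among 23 enzymes of myelin lipid metabolism, 12 were at least 2-fold higher and 1 lower, with a median of 1.12. Elovl1, which lengthens very long fatty acids, differed by 2.37 and Gltp, a glycolipid transfer protein, by 1.92, while Aspa, which frees acetate from N-acetylaspartate, stood at 7.12 and 10.24. The desaturases Fads1 (0.21) and Fads2 (−0.09) and the palmitoyltransferase subunits Sptlc1 (0.34) and Sptlc2 (−0.06), which serve lipid synthesis in most cells, lay near 0. Smpd3, a neutral sphingomyelinase, was the member at least 2-fold lower (−1.64).

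Regulators of oligodendrocytes differed less than the sheath proteins did. Of 20 transcription factors, 9 were at least 2-fold higher and 1 lower, with a median of 0.81. Myrf, which switches on myelin genes, stood at 8.44 and 11.58, a difference of 3.14, and Zfp488 differed by 2.06, Sox10 by 1.46, Tcf7l2 by 1.42 and Olig1 by 1.15. Id2, an inhibitor of basic helix-loop-helix factors, was lower (−1.22). Of 22 genes of oligodendrocyte precursors and newly formed oligodendrocytes, 12 were at least 2-fold higher and 2 lower, with a median of 1.2. Enpp6, a marker of newly formed oligodendrocytes, stood at 6.65 on the E17.5 array, 8.24 at P1, 11.77 on the P5-labelled array and 9.87 on the P14-labelled array, so that the P5-labelled array was again the highest of the 4. Tns3 differed by 2.14, Bcas1 by 1.83 and the receptor Gpr17 by 1.81. The proteoglycan Vcan (−0.89) and the surface protein Pcdh15 (−1.22) of precursors were on the other side of 0, as was Cacng4 (−1.25), which neurons also express.

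The promoter windows of 3 of these myelin genes, which stood among the most different, are shown as examples. They held motifs of factors on the regulator list, which not all of the most different myelin genes did. Each window runs from 250 bases before to 50 bases after a RefSeq transcript start (GRCm38.p6), 5′ to 3′ on the gene's strand. Capitals mark ACAAAG, the core letters bound by Sox factors, in Mobp and Opalin, and CTGGCAC, letters recognised by Myrf, in Mag, each searched on both strands. ACAAAG was in 18.7% of 27025 windows, 1 per gene, and CTGGCAC in 5.0%. Among genes past the filter with a window, ACAAAG was in 12.1% of the higher, 16.7% of the lower and 12.9% of all. CTGGCAC was in 5.97%, 4.82% and 4.78% in the same order. These matches describe the letters and are neither a binding site nor a cause. The Mobp window, chr9:120149492-120149791 on the plus strand, held 6 matches, and it was the 1 window of the 27025 with that many. The Opalin window, chr19:41077064-41077363 on the minus strand, held 2, and 2.26% of windows held at least 2. The Mag window, chr7:30914814-30915113 on the minus strand, held 1 match of CTGGCAC. It also held 1 match of ACAAAG, which is not in capitals. The windows of Ermn, Mog, Cldn11 and Mal held neither motif.
Mobp: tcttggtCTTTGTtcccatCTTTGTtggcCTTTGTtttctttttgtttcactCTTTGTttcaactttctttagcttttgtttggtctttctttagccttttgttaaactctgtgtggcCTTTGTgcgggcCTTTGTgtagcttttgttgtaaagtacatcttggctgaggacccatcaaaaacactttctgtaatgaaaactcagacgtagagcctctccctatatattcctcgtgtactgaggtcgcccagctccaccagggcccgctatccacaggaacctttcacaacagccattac
Opalin: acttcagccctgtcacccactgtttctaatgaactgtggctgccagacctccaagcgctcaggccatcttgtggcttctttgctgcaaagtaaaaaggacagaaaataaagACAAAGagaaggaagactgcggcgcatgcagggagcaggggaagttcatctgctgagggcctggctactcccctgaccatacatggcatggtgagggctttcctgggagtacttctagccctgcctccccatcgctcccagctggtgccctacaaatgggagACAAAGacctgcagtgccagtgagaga
Mag: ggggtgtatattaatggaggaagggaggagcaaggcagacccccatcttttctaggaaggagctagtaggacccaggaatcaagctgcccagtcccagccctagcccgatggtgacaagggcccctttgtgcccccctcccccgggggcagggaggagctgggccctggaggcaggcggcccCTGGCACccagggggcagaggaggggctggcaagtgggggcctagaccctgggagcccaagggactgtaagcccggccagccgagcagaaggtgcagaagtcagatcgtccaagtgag

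Genes of the node of Ranvier and its flanks, where axon and myelin meet, were higher in part. Of 27 genes, 10 were at least 2-fold higher and none lower, with a median of 0.39. Cntnap1, the paranodal partner of contactin, stood at 9.21 and 12.19, a difference of 2.98, and Kcna1, a potassium channel of the juxtaparanode, stood at 8.52 on the E17.5 array, 8.85 at P1, 11.79 on the P5-labelled array and 9.88 on the P14-labelled array. Kcna1 was thus 7.67-fold higher than at P1. Kcnab2 differed by 2.01, Epb41l3 by 1.78 and Nfasc by 1.46. Spectrin Sptan1 (−0.23), Cntnap2 (−0.27) and Sptbn4 (−0.28) lay below 0 within 2-fold.

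**Figure D2:**
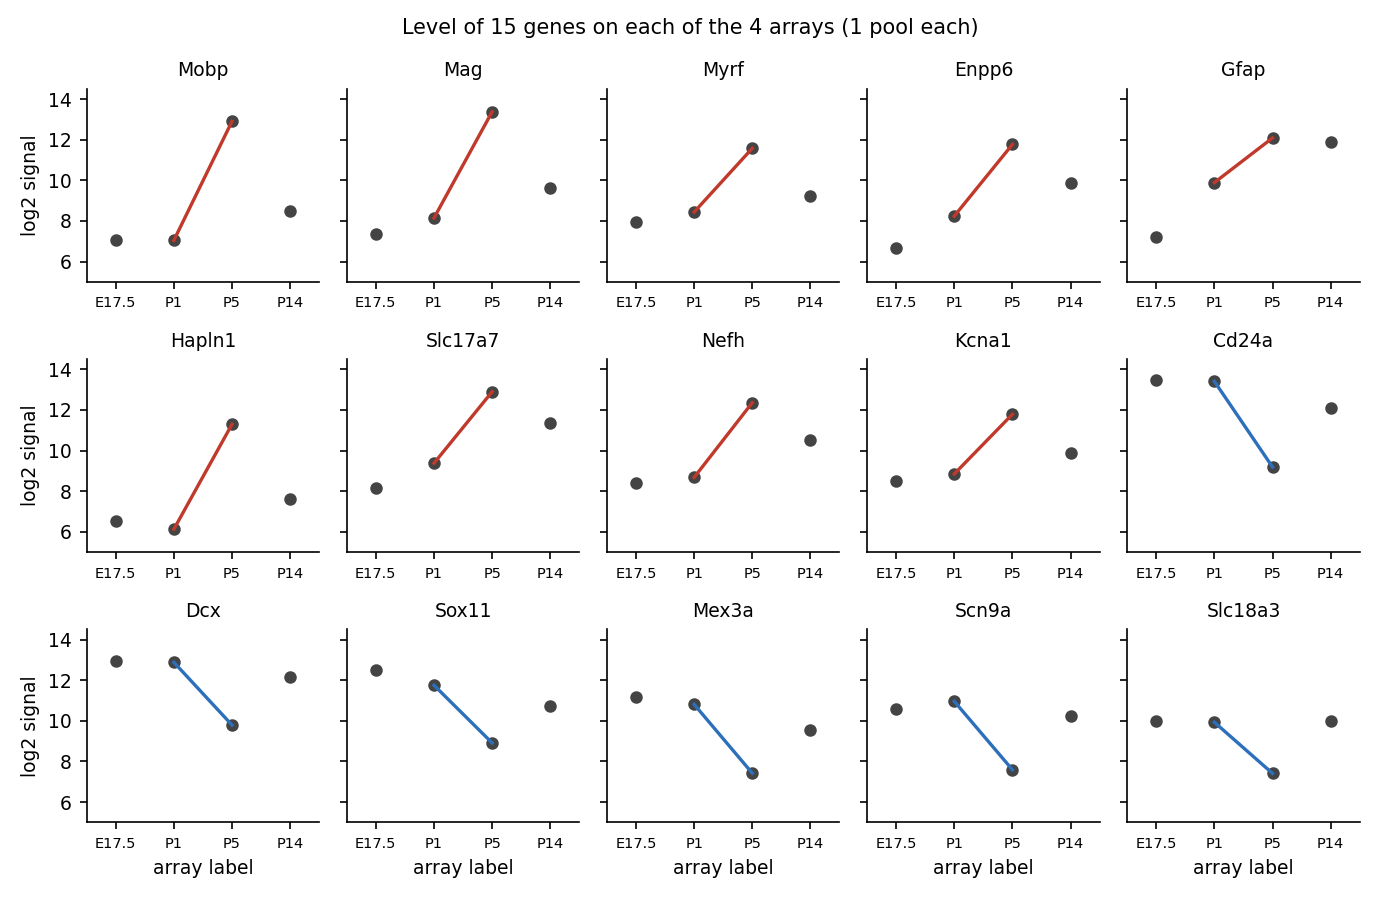
Log2 signal (vertical axis) of 15 genes on each of the 4 arrays (horizontal axis, by label), 1 point per array of 1 pool. The coloured line joins the 2 arrays compared, red where the P5-labelled array is higher and blue where it is lower. In each panel the P5-labelled array is the highest or lowest of the 4, as for Mobp at 12.91 against 7.05, 7.05 and 8.50.

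Cd24a, a surface glycoprotein of young neurons, was the gene furthest on the lower side. It stood at 13.48 on the E17.5 array, 13.41 at P1, 9.19 on the P5-labelled array and 12.08 on the P14-labelled array, and was 18.6-fold lower than at P1. Dcx, the microtubule protein doublecortin, stood at 12.97, 12.88, 9.79 and 12.14, and Sox11, a transcription factor of new neurons, at 12.52, 11.75, 8.91 and 10.71. In these 3 genes the P5-labelled array was lowest. For Cd24a and Dcx the other 3 lay closer together, while the values of Sox11 were spread over the 4 arrays. Sox11 was 7.16-fold lower than at P1, Crabp1, a retinoic acid binding protein, 7.46-fold, and Tnc, a matrix protein of growing tissue, 6.15-fold. Others of the 20 lowest ended under 8.42 on the P5-labelled array. Ablim3, an actin-binding protein, stood at 11.33 and 7.94, Mex3a, an RNA-binding protein, at 10.81 and 7.42, Scn9a, a sodium channel, at 10.96 and 7.59, Igfbpl1 at 10.08 and 6.95, Stk32b at 10.92 and 7.80, Gpc2, a glypican of growing axons, at 10.25 and 7.27, and Lrat, which stores retinol, at 10.74 and 7.81. Zfp804b stood at 9.61 and 6.73, Sostdc1, a BMP and Wnt antagonist, at 10.66 and 7.83, Kcnh4 at 10.09 and 7.45, Camkv at 10.31 and 7.68, Calb1 at 9.99 and 7.4, and Slc10a4 at 9.28 and 6.71. Zfp57, which keeps imprinted marks, differed by −2.75 and Ebf1 by −2.70.

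Growth cone and surface genes of young neurons were lower in part. Of 30 genes for microtubule and growth cone proteins, 10 were at least 2-fold lower and 1 higher, against 3.96% and 9.22% of all genes, with a median of −0.78. Fnbp1l differed by −2.41, Gap43, the growth-associated protein, by −1.82 and Shtn1, which links the growth cone's actin to adhesion, by −1.76. Stmn3 (0.03), Fez1 (0.31) and Dpysl2 (−0.29) lay near 0, and Tagln3 (1.15) was the member on the higher side. Of 31 surface proteins, 9 were at least 2-fold lower and none higher, with a median of −0.34. St8sia2, which adds polysialic acid to NCAM before birth, stood at 11.90 on the E17.5 array, 11.87 at P1, 9.50 on the P5-labelled array and 11.87 on the P14-labelled array. It was low on a single array of the 4. The cell adhesion proteins Nrcam (0.00) and Alcam (−0.09) lay near 0.

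Transcription factors of young neurons went the same way. Of 30 such factors, 7 were at least 2-fold lower and none higher, with a median of −0.49. Prdm8 differed by −1.96 and Sox4, which acts beside Sox11, by −1.81, and Ebf3 stood at 8.87 and 7.57. Among 21 pontine and rhombic lip factors, 7 were at least 2-fold lower and 1 higher, with a median of −0.56. Zic4 differed by −1.68, Meis1, a Hox cofactor, by −1.54 and Zic5 by −1.25. Pax6 (−1.02) and Meis2 (−1.03) lay just past 2-fold and Barhl1 (−0.96) just within it, a gap smaller than the spread between probe sets. Nfic (1.21) was the member on the higher side, while its relative Nfib differed by −1.20. The median of the 11 Hox genes that passed was −0.18, with Hoxa2 at −1.46, Hoxa3 at levels of 9.32 and 7.69, and Hoxb5 at levels of 8.15 and 9.21.

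The Sox11 window, chr12:27342669-27342968 on the minus strand of GRCm38.p6, is printed beside the myelin windows as that of a lower gene. It held 2 matches of GGGCGG, the GC box bound by Sp factors, which are in capitals and were searched on both strands. At least 2 such matches were in 19.6% of the 27025 windows, and at least 1 in 35.9%. Among genes past the filter with a window, at least 1 was in 64.5% of the higher, 65.0% of the lower and 67.2% of all. The motif thus did not set the lower genes apart.
Sox11: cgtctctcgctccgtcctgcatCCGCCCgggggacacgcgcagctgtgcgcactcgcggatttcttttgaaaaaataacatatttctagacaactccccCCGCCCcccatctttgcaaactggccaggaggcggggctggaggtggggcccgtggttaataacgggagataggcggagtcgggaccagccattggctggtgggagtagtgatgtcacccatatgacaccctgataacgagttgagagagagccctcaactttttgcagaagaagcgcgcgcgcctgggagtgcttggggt

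RNA-binding proteins lay on both sides. Of 40 RNA-binding and splicing regulators, 9 were at least 2-fold lower and 2 higher, with a median of −0.45. Besides Mex3a, its relatives Mex3b (−1.57) and Mex3d (−1.40) and the neuronal splicing factors Celf3 (−1.70) and Celf5 (−1.61) were lower. Mbnl2, which promotes adult splicing patterns, stood at 10.20 and 12.31, a difference of 2.11, and Cpeb3 differed by 1.26. Of 44 chromatin genes, 4 were at least 2-fold higher and 4 lower, against 9.22% and 3.96% of all genes, so the share of higher ones was near that of all genes. The higher ones were the histone deacetylases Hdac11 (1.19), Hdac9 (1.09) and Hdac5 (1.0) and the DNA methyltransferase Dnmt3a (1.01). The lower ones were Hmgb3 (−1.78), the BAF complex subunits Smarcd3 (−1.53) and Dpf1 (−1.39), and the remodeller Chd7 (−1.0). The many other probe sets of Chd7 differed by −0.59 to −1.14, so its place past 2-fold rests on the probe set taken. The 24 cell cycle genes had their median at −0.57, and none was at least 2-fold lower. Mki67, the Ki-67 antigen, differed by −0.77 and Rrm2, a ribonucleotide reductase subunit at levels of 8.93 and 7.96, came nearest. Ccne1, cyclin E1, was the member at least 2-fold higher (1.40).

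**Figure D3:**
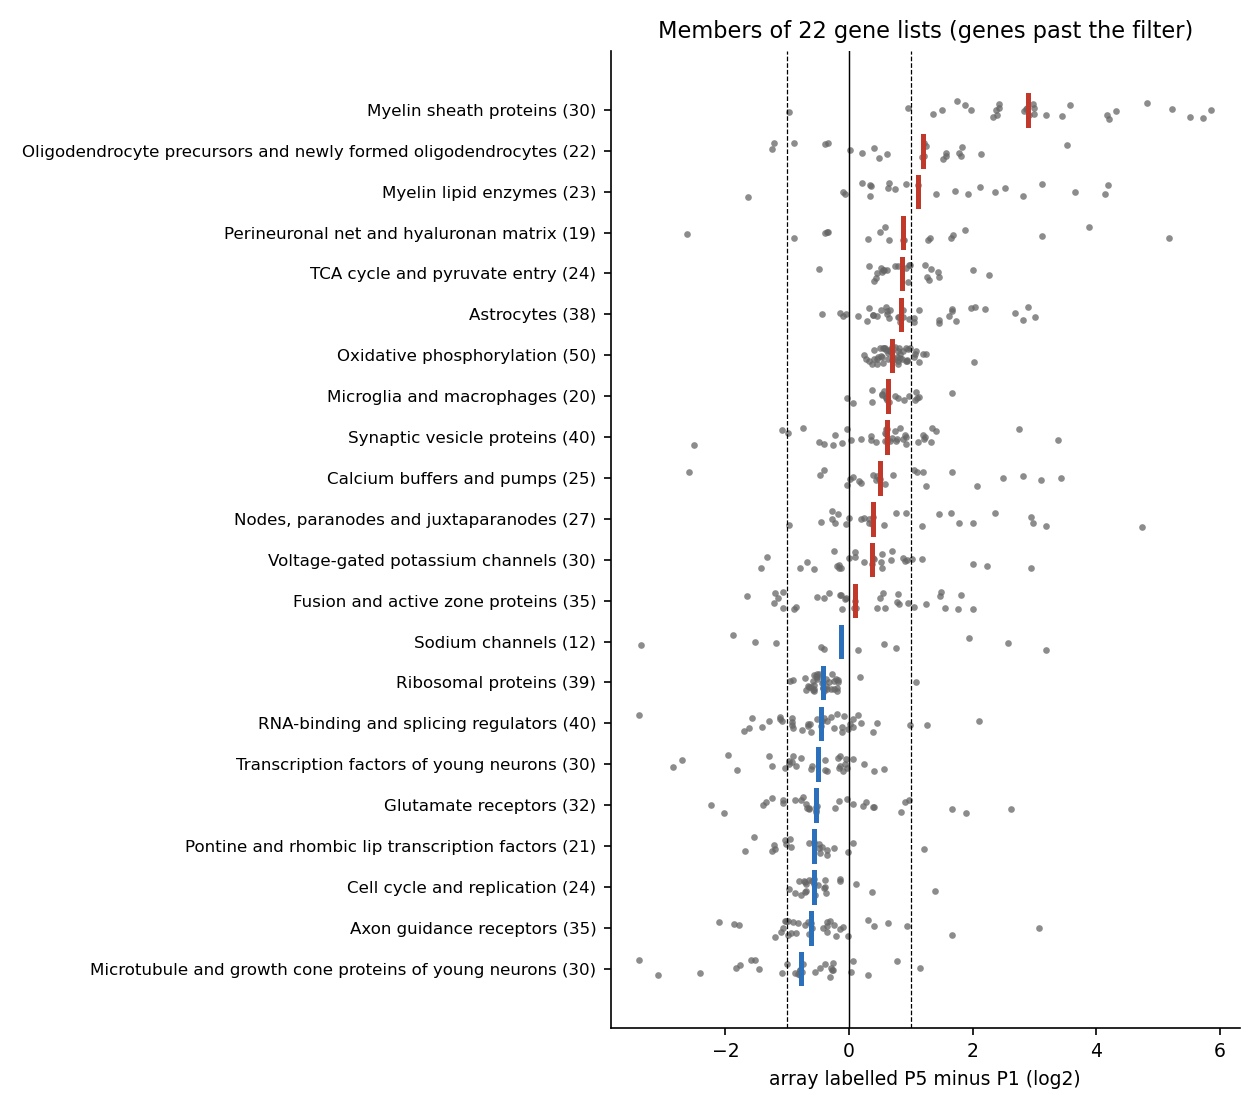
Difference between the P5-labelled array and the P1 array (horizontal axis, log2) for each member past the filter of 22 gene lists (rows, with the number of members), 1 point per gene. The coloured bar is the list's median and the dashed lines mark 2-fold. Myelin sheath proteins have the highest median at 2.90 and growth cone proteins the lowest at −0.78, while lists such as sodium channels spread to both sides.

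Genes of synaptic transmission included large differences on both sides. Of 40 vesicle genes, 9 were at least 2-fold higher and 2 lower, around a median of 0.62. Vamp1, a synaptobrevin of fast synapses, stood at 8.76 on the E17.5 array, 9.02 at P1, 12.40 on the P5-labelled array and 9.62 on the P14-labelled array, and was 10.4-fold higher than at P1. Syt2, a fast calcium sensor of release, stood at 7.39 and 10.14, and the vesicle protein synaptophysin, Syp, differed by 1.2. Rab3b stood at 10.60 and 8.10, and Syt4 differed by −1.09. Of 35 fusion and active zone genes, 8 were at least 2-fold higher and 6 lower, with a median of 0.09. The fusion ATPase Nsf (2.0), its partner Napb (1.56), the complexin Cplx1 (1.48) and Snap25 (1.25) were higher. The active zone proteins Unc13b (−1.65), Rims3 (−1.21), Erc2 (−1.15) and Erc1 (−1.07) and the membrane fusion protein Stx1a (−1.20) were lower, while Unc13c was higher (1.82). Further probe sets of Erc1 lay within 2-fold (−0.58 and −0.76).

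Receptors for glutamate were lower on balance, with their median at −0.54. Of 32 members, 7 were at least 2-fold lower, against 3.96% of all genes, and 3 higher, a share near the 9.22% of all genes. Grm3, a metabotropic receptor, differed by −2.23, and the AMPA receptor partners Shisa7 (−2.02), Cnih2 (−1.39) and Shisa6 (−1.34) were lower. On the higher side were Grin2a, the NMDA receptor subunit of mature synapses, at levels of 6.83 and 9.45, and the presynaptic receptors Grm8 (1.89) and Grm4, at levels of 8.19 and 9.85. The 31 genes of the postsynaptic density had their median at 0.13. Of these, 3 were at least 2-fold higher and 2 lower, against 9.22% and 3.96% of all genes. The share of higher ones was near that of all genes. Arc stood at 8.12 and 10.17, and Baiap2 differed by 1.52, against Shank2 at −1.36 and Psd2 at −1.01. For Shank2, further probe sets differed by −1.36 and −0.54. Slc17a7, the glutamate transporter VGLUT1, stood at 8.16 on the E17.5 array, 9.38 at P1, 12.90 on the P5-labelled array and 11.36 on the P14-labelled array. Got1, which makes aspartate and glutamate, differed by 1.99, and Slc1a2, the glutamate transporter of astrocytes, by 1.98. For inhibition, the glycine receptor subunits Glra1 (2.20) and Glrb (1.52) were higher and Glra2 (−2.09) lower, while the GABA receptor subunits Gabra5 (0.16), Gabrb2 (0.23) and Gabra2 (−0.36) lay within 2-fold.

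Ion channels included differences on both sides. The counts stand against 9.22% of all genes at least 2-fold higher and 3.96% lower. Of 12 sodium channel genes, 3 were at least 2-fold higher and 4 lower. Scn2b, an accessory subunit, differed by 2.57 and the pore subunit Scn1a by 1.94, and Scn4b stood at 6.66 and 9.84. The lower ones were Scn9a, Fgf13 (−1.87), Scn3a (−1.52) and Scn3b (−1.18). Of 30 voltage-gated potassium channel genes, 5 were at least 2-fold higher and 2 lower. Both lower ones lay under 8.42 on the P5-labelled array, and the median was 0.38 (0.09 over all 38 named). Kcnc4, of the fast-spiking Kv3 class, differed by 2.23 and Kcna2 by 1.18, while Kcnd3 stood at 9.61 and 8.29 and Kcnh8 at 8.54 and 7.11. Of 24 other potassium and HCN channel genes, 7 were at least 2-fold higher and none lower, led by the glial channel Kcnj10 (2.04). Among 17 calcium channel genes, 5 were at least 2-fold higher and 2 lower. Cacnb4 differed by 1.23, the T-type channels Cacna1i by 1.13 and Cacna1g by −1.09, and Cacna1h stood at 10.13 and 8.20. In a list of 25 calcium buffers and pumps, 10 were at least 2-fold higher and 1 lower. Slc24a2, a sodium-calcium exchanger, differed by 3.43 and Calb2, calretinin, by 2.50. Pvalb, parvalbumin, stood at 6.48 and 8.55, and Calb1, calbindin, was the member on the lower side.

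In 28 pairs of related genes, 1 member was taken as early (young) and 1 as late (mature) from textbook knowledge. Some pairs, such as Fabp7 with Fabp5, are not particular to neurons. In 22 pairs both members passed the filter. The mature member had the larger difference in 19 of the 22. It was at least 2-fold higher in 12, and the young member was at least 2-fold lower in 4. The median difference was 1.28 for the mature and −0.17 for the young members, so most of the gap came from the mature member. Both members were at least 2-fold apart in opposite directions in 3 pairs. These were Grin2b (−1.07) with Grin2a, Glra2 with Glra1, and Scn3a with Scn1a. The chloride transporters stood against their pairing, since the importer Slc12a2 differed by 1.56 and the extruder Slc12a5 by 0.72. Slc12a2 stood at 9.88, 9.76, 11.32 and 9.68 from E17.5 to the P14-labelled array and was high on the P5-labelled array alone. The BAF subunits also did, with Actl6a at 0.01 and the neuronal Actl6b at −0.84, as did the scaffolds Dlg3 (0.34) and Dlg4 (0.13), which lay closer together.

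**Figure D4:**
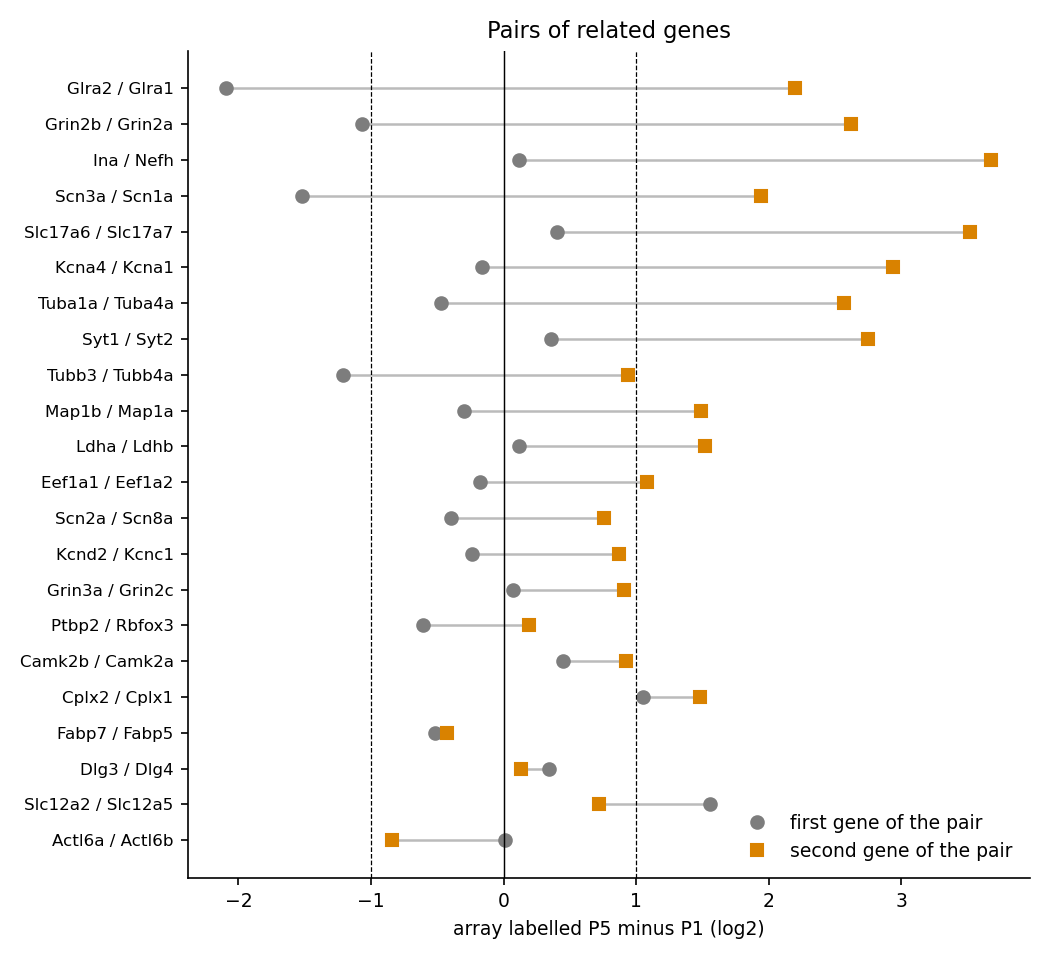
Difference between the P5-labelled array and the P1 array (horizontal axis, log2) for both genes of 22 pairs (rows). Grey circles are the gene taken as early, named first, and orange squares the gene taken as late. The square lies to the right in 19 pairs, and in Slc12a2 with Slc12a5, Dlg3 with Dlg4 and Actl6a with Actl6b it lies to the left.

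The cytoskeleton of the axon, which shares Nefh, Tuba4a and Tubb3 among others with these pairs, differed in both directions. Of 15 neurofilament and axonal genes, 7 were at least 2-fold higher and 2 lower, with a median of 0.94. Nefh was 12.8-fold higher, Nefm differed by 2.11 and Nefl by 1.30, and Thy1, an axonal surface protein, differed by 2.52. The microtubule protein Mapt was lower (−1.31). Among 15 tubulin genes, Tuba4a was higher (2.57), and Tubb2b (−1.67) and Tubb3 (−1.21) were lower, with a median of −0.40. Tubulin genes are close copies of each other, so the values of single members are uncertain.

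Guidance genes differed by family member. Of 34 ligands, 6 were at least 2-fold higher and 7 lower. Sema5a (2.20), Sema3e (2.07), Sema4d (1.74), Sema7a (1.44) and Slit3 (1.37) were higher, and Sema6c (−1.75) and Sema3f (−1.28) were lower, with Slit1 at levels of 9.93 and 7.66 and Draxin at 10.22 and 7.76. Of 35 receptors, 2 were at least 2-fold higher and 8 lower, with a median of −0.62 (−0.42 over all 43 named). Plxnb3, a plexin of oligodendrocytes, stood at 8.16 and 11.23 and the netrin receptor Unc5b differed by 1.67. Plxnc1 (−2.10), Plxna3 (−1.86) and Plxnd1 (−1.20) were lower, and Unc5d stood at 9.30 and 7.52. The matrix of perineuronal nets, which wraps mature neurons, was represented by 19 genes, of which 8 were at least 2-fold higher and 1 lower, around a median of 0.87. In 5 of the 8 the P1 value lay under 8.42, and over all 27 named genes the median was 0.44. Hapln4 stood at 7.30 and 10.42 and Tnr, tenascin R, differed by 1.65. The proteoglycan Ncan differed by −0.38, and Acan, aggrecan, did not pass the filter (6.52 and 6.96).

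Markers of other cells differed beside these neuronal results, and their part in them was not tested. Of 38 astrocyte genes, 16 were at least 2-fold higher and none lower, with a median of 0.85. Gfap, the astrocyte filament, stood at 7.19 on the E17.5 array, 9.89 at P1, 12.09 on the P5-labelled array and 11.91 on the P14-labelled array. Unlike the myelin genes, Gfap had similar levels on the P5-labelled and P14-labelled arrays. Ntsr2 differed by 3.01, Agt by 2.69 and Clu by 1.67, whereas Aldh1l1 (−0.10), Sox9 (−0.05) and Slc1a3 (0.14) lay near 0. Of 20 microglial genes, 5 were at least 2-fold higher, 4 of them from a P1 value under 8.42, with a median of 0.64. Olfml3 differed by 1.1, and Tmem119 stood at 8.17 and 9.26, while Trem2 differed by −0.03. Endothelial genes had 3 of 25 at least 2-fold higher, near the 9.22% of all genes, namely Car4 (1.98), Slc16a1 (1.28) and Mfsd2a (1.12). Mural and meningeal genes had 5 of 19 at least 2-fold higher, and 9 of the 19 were higher on the P14-labelled array than on the P5-labelled array. Dcn, decorin of fibroblasts, stood at 7.25, 7.16, 9.35 and 9.82 from E17.5 to the P14-labelled array, and Igf2 at 9.97, 9.65, 10.85 and 11.57. Both were highest on the P14-labelled array, while Pdgfrb, a pericyte receptor, was highest on the P5-labelled array (9.75 against 9.31).

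Markers of other neurons were mixed. Of 5 cholinergic and motor neuron genes that passed, 1 was at least 2-fold higher and 2 lower, with a median of 0.25 (−0.15 over all 15 named). Of 4 monoaminergic genes that passed, 2 were higher, both with a P1 value under 8.42, and the median was 0.83 (−0.11 over all 12 named). Slc18a3, which loads acetylcholine into vesicles, stood at 10.01 on the E17.5 array, 9.93 at P1 and 7.41 on the P5-labelled array, and on the P14-labelled array it lay 0.07 above P1. Slc5a7, the choline transporter, stood at 10.31, 10.27, 8.4 and 10.12, and Chat, choline acetyltransferase, which did not pass the filter, at 8.17, 8.14, 7.22 and 8.19. For Slc18a3 and Slc5a7 the other 3 arrays lay close together and the P5-labelled array stood apart. Ache, which breaks acetylcholine down, was higher (2.12). Slc6a4, the serotonin transporter, stood at 8.79 and 7.80, within 2-fold. Of 8 cerebellar genes that passed, 2 were at least 2-fold higher and 2 lower. In all of these the smaller value lay under 8.42. Cbln1, a synapse organiser of granule cells, was on the lower side, at 9.52 and 7.38. The granule cell genes Gabra6 (5.87 and 8.34) and Cbln3 (6.91 and 7.52) did not pass the filter and are not in these counts. Their values were higher on the P5-labelled array, that of Cbln3 within 2-fold (0.61). How much tissue outside the nucleus each pool held was not tested.

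Genes of energy metabolism were mostly above 0, as were 54.4% of all genes. The 50 oxidative phosphorylation genes that passed all lay above 0, with a median of 0.69. Of these 50, 7 were at least 2-fold higher, against 9.22% of all genes. Atp5b had the smallest step among them (0.25), and Cox7a1, at levels of 7.44 and 9.46, the largest. Of 24 genes for pyruvate entry and the citric acid cycle, 8 were at least 2-fold higher, with a median of 0.85, among them Pdk2 (2.26), Ckmt1 (2.0) and Mdh1 (1.46). Glycolysis had 5 of 20, with Eno2, the neuronal enolase, at 1.94 and Ldhb at 1.52, against Hk1 at −0.47 and Ldha at 0.12. By symbol, the 41 complex I subunits and assembly factors that passed and all 17 subunits of the ATP synthase lay above 0, as did 16 of 18 cytochrome oxidase genes and 67 of 74 mitochondrial ribosomal proteins (median 0.39). Cytosolic ribosomal proteins lay on the other side. Of 52, 51 were below 0, with a median of −0.45 and Rps12 at −1.07. This family was set after the data were seen, and its members have many close copies in the genome. Of 46 splicing factors and ribonucleoproteins, 39 were below 0 (median −0.27), and of 235 zinc finger genes 168 (median −0.19), few of them past 2-fold. Under centring on the median or quantile normalisation, the oxidative phosphorylation, complex I, ATP synthase and cytosolic ribosome counts were the same. Those of the mitochondrial ribosome became 69 and 65, of the splicing factors 38 and 41, and of the zinc finger genes 157 and 174.

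**Figure D5:**
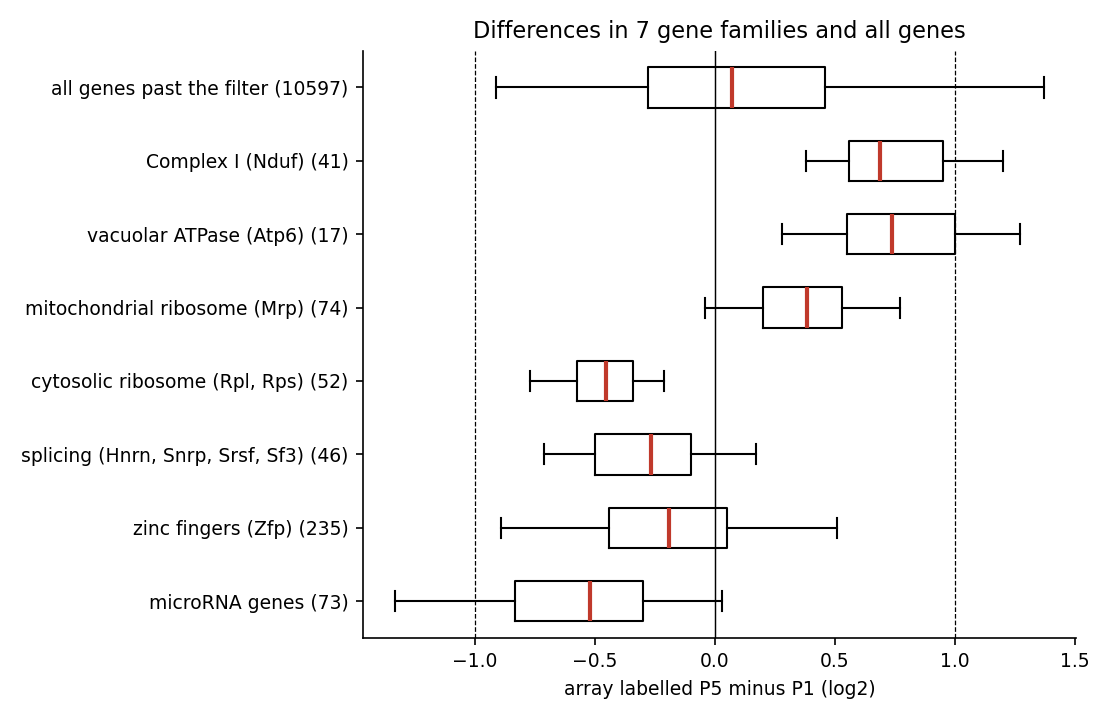
Difference between the P5-labelled array and the P1 array (horizontal axis, log2) for all genes past the filter and for 7 gene families (rows, with the number of genes). Boxes span the quartiles, the red line is the median, whiskers reach the 5th and 95th percentiles and dashed lines mark 2-fold. Each family holds the genes that passed. The box of complex I (median 0.69) lies wholly above 0 and that of the cytosolic ribosome (median −0.45) wholly below it.

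Probe sets of microRNA genes were mostly lower. MicroRNAs are short RNAs that repress messages paired to their seed, bases 2 to 8, and are processed from longer hairpin transcripts. The whole-transcript array reads the hairpin or its precursor and not the mature microRNA. Of 296 named microRNA genes, 73 passed the filter. Among these, 67 lay below 0, with a median of −0.52, 9 were at least 2-fold lower (12.3%, against 3.96% of all genes) and 1 was higher. Of the 9, 4 passed through the P1 array alone, and over all 296 named genes 220 lay below 0, with a median of −0.25. This family was also set after the data were seen. The mature RefSeq sequences (GRCm38.p6) of 7 lower genes, of the higher one and of Mir338, which lay within 2-fold, are given 5′ to 3′ with the seed in capitals. They show which genes share a seed and which are known from oligodendrocytes. Of the lower genes, Mir505 (−1.33) and Mir342 (8.51 and 7.35) are not printed.
mmu-let-7c-5p: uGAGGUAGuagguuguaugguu
mmu-let-7e-5p: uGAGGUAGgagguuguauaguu
mmu-miR-99a-5p: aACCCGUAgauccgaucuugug
mmu-miR-9-5p: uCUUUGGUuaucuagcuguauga
mmu-miR-128-3p: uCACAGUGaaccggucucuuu
mmu-miR-181b-5p: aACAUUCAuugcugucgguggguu
mmu-miR-181c-5p: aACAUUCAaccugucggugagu
mmu-miR-219a-5p: uGAUUGUCcaaacgcaauucu
mmu-miR-338-3p: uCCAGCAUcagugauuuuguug

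The let-7c and let-7e sequences share the seed GAGGUAG, and miR-181b and miR-181c share ACAUUCA. Mir99a stood at 10.81 on the E17.5 array, 10.72 at P1, 8.91 on the P5-labelled array and 10.19 on the P14-labelled array, and Mirlet7c-1, its neighbour on chromosome 16, at 9.11, 9.0, 7.22 and 8.24. Both were lowest on the P5-labelled array. The 4 probe sets of their host transcript Mir99ahg were lower too, by differences of −1.22 to −0.70. Mir9-1, of a microRNA abundant in brain, differed by −1.40, and Mir128-2 stood at 9.22 and 7.84, Mirlet7e at 9.12 and 7.86. The one on the higher side was Mir219a-2, of a microRNA known to promote myelination, at 7.81, 8.07, 10.15 and 8.85 from E17.5 to the P14-labelled array. Its probe set is also assigned to a longer cDNA. The counterpart Mir219a-1 stood at 8.28 and 8.34. Mir338, of another oligodendrocyte microRNA, stood at 7.94 and 8.46, and its host gene Aatk differed by 1.07.

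The arrays labelled E17.5 and P14, which the comparison did not use, gave a second reading of the same genes. Whether all 4 arrays were normalised together is not known. Of the 977 higher genes, 883 (90.4%) were also higher on the P14-labelled array than at E17.5, against 41.4% of all genes. At least 2-fold the same way were 278 (28.5%), against 4.64% of all genes, and they made up 56.5% of the genes past that threshold there. Of the 420 lower genes, 336 (80.0%) were also lower, against 57.6% of all genes, and 44 (10.5%) at least 2-fold, against 0.963%. At least 2-fold the other way were 3 of the higher genes, Gstm7, Lamp5 and Rnf122, and 5 of the lower ones, Aloxe3, Cpne5, Ddn, Pcdh19 and Plxnd1. Plxnd1 stood at 10.97 on the E17.5 array, 11.69 at P1, 10.49 on the P5-labelled array and 12.01 on the P14-labelled array. The same 2 arrays differed by 0.60 at the median for the higher genes and by −0.41 for the lower ones, against −0.08 for all genes.

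The P14-labelled array lay between the P1 array and the P5-labelled array for 943 of the 977 higher genes (96.5%) and 386 of the 420 lower ones (91.9%). At the median it had gone 30.9% of the step from P1 to the P5-labelled array for the higher genes (quartiles 18.7% and 44.6%) and 26.3% for the lower ones (quartiles 15% and 36.3%). Genes differed in this share. Among genes at or above 8.42 on both arrays, Trf had gone 6.25% of its step, Cldn11 31.3% and Nefh 49.5%. The P5-labelled array held the highest of the 4 values for 970 of the higher genes and the lowest for 418 of the lower ones. Because these figures share the P1 array and the P5-labelled array with the comparison, they describe the order of the arrays and are no separate evidence.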

How the data were processed

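The authors deposited 1 log2 signal for each probe set and array, and the submitters' processing notes name Affymetrix Expression Console. Its version, the summary method, any normalisation and a genome build were not given in the sources used here. That the scale is log2 follows from the values, which ran from 1.84 to 14.72, with array medians of 7.89 to 7.94. They were used without rescaling. Of 35556 probe sets, 21789 carried 1 symbol in the platform's table, 1621 several, and 12146 were not named by it. The identifiers of 21698 were found in a RefSeq table (GRCm38.p6), used for names. Sequences came from RefSeq tables of the same assembly, which held 68 of the 73 microRNA genes. The table held a promoter window for 78.9% of the higher, 74.0% of the lower and 80.3% of all genes past the filter. Motif shares describe only the genes with a window and were not tested.

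No test was run, as each age has 1 array. Genes were called at a difference of 1. Named genes were the 20 largest each way, without predicted, unnamed, small RNA and olfactory genes, up to 4 each way per list or family, both members of each pair, and Barhl1, Pax6, Slc17a6, Slc17a7, Mbp, Dcx, Cd24a, Gfap, Mki67, Hapln1 and Pvalb. One further item of this rule is not reported here. Members of lists that lay near 0, and genes given with all 4 values, were partly chosen after their values were seen. The comparison, the 54 lists, 28 pairs and 38 symbol families were chosen with earlier results of these data known, and 2 families after seeing the values. Calling was tested on simulated data with noise of 0.18 and no difference between pools. That test cannot show how many calls arise from the pools alone. Python 3.11.15, pandas 2.3.3, numpy 2.4.6 and matplotlib 3.10.9 were used.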

Additional observations from a re-analysis of the deposited data

Results flagged for a closer look

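Probe sets without a single gene symbol were outside the gene comparison and also held differences. Of 4493 such probe sets that reached 8.42 on at least 1 of the 2 arrays, 107 (2.38%) were at least 2-fold higher on the P5-labelled array and 207 (4.61%) at least 2-fold lower. Among the named genes the larger number was on the higher side, with 977 against 420. The 3724 probe sets not named by the table held 96 of the higher and 175 of the lower ones, and the 769 with several symbols held 11 and 32. They have no gene name here, and no control array gives a background for them.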

How the results depend on the processing

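With both arrays required to reach 8.42, 578 genes were at least 2-fold higher and 282 lower, since 1439 fewer genes were then compared. With the P14-labelled array in place of the P5-labelled array, the counts against P1 were 146 and 11, and Camkv (0.11) and Slc10a4 (0.05) changed sign; the cause was not tested. Asking for 2-fold instead of the same sign on the 2 arrays not used took the shares from 90.4% to 28.5% and from 80.0% to 10.5%. The other settings kept both counts within 1.5 times. These were no filter, a filter at 6.83, other choices among a gene's probe sets, centring, quantile normalisation and the E17.5 array in place of P1. The counts ranged from 946 to 1236 and from 379 to 562. Of the 53 list medians, 25 moved by more than 0.18 with the E17.5 array in place of P1. With the P14-labelled array in place of the P5-labelled array, 35 did. Of 48 differences of named genes, 36 and 45 moved in the same order. Changes of the filter moved fewer medians, 11 without it, 11 with it at 6.83 and 11 with both arrays at the level. The last took myelin sheath proteins from 2.90 to 2.38, myelin lipid enzymes from 1.12 to 0.70 and oligodendrocyte precursors from 1.2 to 0.90. Without the filter voltage-gated potassium channels went from 0.38 to 0.09, and the sodium channel median changed sign from −0.13 to 0.14. No scaling moved the median of all genes by over 0.1. No paired analysis was possible because each age was 1 array. Array signal near background limits 537 of the 1397 differences, whose smaller value lay under 8.42.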

Other observations

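Symbol families outside the lists above held further differences. Of 13 claudins and connexins that passed, 8 were at least 2-fold higher and 1 lower. In 4 of the 8 the P1 value lay under 8.42, and the median over all 43 named was −0.03. Besides Cldn11, the glial connexin Gjc3 differed by 2.84, and Gjb6 stood at 6.56 and 9.45, Gjb1 at 6.70 and 9.12, and Gjb2 at 6.81 and 8.56. The neuronal connexin Gjd2 differed by 1.11, and Gjc1 stood at 9.21 and 7.95. Of 15 cytochrome P450 genes, 9 were at least 2-fold higher and none lower. Cyp2d22 differed by 2.16, Cyp46a1, which turns over brain cholesterol, by 1.33, and Cyp27a1 stood at 7.06 and 9.17. Of 87 such genes on the array those 15 passed the filter, 5 of the 9 had a P1 value under 8.42, and the median over all 87 was −0.08. Of 24 named subunits and accessory proteins of the vacuolar ATPase, the proton pump of vesicles and lysosomes, 18 lay above 0, among them the 17 that passed, with a median of 0.74 and Atp6v1g2 at 1.76. Cathepsins had 3 of 9 at least 2-fold higher, Ctso (1.84), Ctsf (1.2) and Ctss, at levels of 8.28 and 9.35. Within the Sox family of 14 genes, Sox10 and Sox8 (1.26) were higher and Sox11, Sox4 and Sox12 (−1.24) lower.

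Among genes of signalling, the immediate early list had 4 of 13 at least 2-fold higher. Fos stood at 7.38 and 9.59, Egr1 at 7.91 and 9.93 and Arc at 8.12 and 10.17, and Jun differed by 1.31, while Egr3 (−0.01) and Jund (0.04) lay near 0. Of 10 thyroid hormone response genes that passed, 3 were at least 2-fold higher and 1 lower. Klf9, a target of the thyroid hormone receptor, stood at 8.42 on the E17.5 array, 8.94 at P1, 11.28 on the P5-labelled array and 10.07 on the P14-labelled array, and Hr stood at 7.79 and 9.26. The receptor gene Thra differed by −0.41. Retinoid genes were split, with Dhrs3 (1.24) higher, Aldh1a1 at 8.26 and 10.18, and Rxrg at 9.36 and 7.76. In the cholesterol list of 28 genes, 4 were at least 2-fold higher and none lower, with a median of 0.3. Among the higher ones were Apod (3.14) and Ebp (2.22). Above 0 lay 21 of the 28, while Hmgcs1 (−0.11), Sqle (−0.16) and Fdft1 (−0.42) were below 0 within 2-fold.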
